A study of Mus musculus with 8 samples.

Results

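The small heat shock proteins and the BAG family are 2 groups of chaperone genes, followed here as 10 members in endothelial cells of mouse embryos. The members were chosen by gene symbol with earlier results of these libraries in view: the small heat shock proteins Hspb1, Hspb6, Hspb8 and Cryab, and the BAG genes Bag1, Bag2, Bag3, Bag4, Bag5 and Bag6. They are 10 of the 23337 genes in the deposited table. Their difference between tamoxifen and no tamoxifen is therefore given as a description, with errors. Where a member is said to pass the threshold of the fit over all genes, that is also a description and no evidence for the choice of members.

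Whole embryos were collected at E15.5 (days after conception) and their endothelial cells were purified by fluorescence-activated sorting, stored frozen, and made into libraries from ribosomal-RNA-depleted total RNA at the same time. Pregnant females of one group received tamoxifen by gavage at E12.5, and those of the other group did not. Tamoxifen binds the oestrogen receptor, and it activates CreERT2, a Cre recombinase fused to a mutated receptor domain. Both groups came from Cdh5-CreERT2(PAC);Rosa26fsTRAP transgenic mice, in which the promoter of the endothelial gene Cdh5 drives the recombinase and Rosa26 carries the fsTRAP allele. The genotype label nevertheless reads wild type for every sample. Effects of tamoxifen, of the gavage, of Cre activation and of litter cannot be told apart in this design. The sources used here do not give the strain or age of the mothers, or how many embryos or litters went into a sample. The p-values therefore measure the spread among these libraries alone, which could be technical.

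The table has 9 value fields per line and 8 library names, so the names can be set over the columns in 2 ways. The 3 libraries no_tamoxifen_1 to no_tamoxifen_3 and the 3 libraries tamoxifen_1 to tamoxifen_3 have the same group either way, and they make the comparison. The columns numbered 6 and 10, with the gene symbol as column 1, are shown apart. Column 6 falls in the group without tamoxifen or in the tamoxifen group according to the placement, and column 10 is a tamoxifen library or has no name. Reads counted in genes ranged from 12212472 to 19908404 over the 6, and 1 read was worth 0.701 to 1.08 normalised reads in them. Column 6 held 8695745 reads and column 10 held 22593195. The endothelial marker Cdh5 was read in every library, at 2948 to 5020 normalised reads without tamoxifen and 1978 to 5201 with it. Markers of macrophages were also high in all 6, with a summed level of 28423 to 44702 normalised reads over 7 genes, against 8070.1 to 20000.1 for 10 endothelial genes. Column 6 stood apart, with a summed level of 3383 for the endothelial genes, 781 for the macrophage genes and 458818 for 11 mesenchymal genes.

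Small heat shock proteins bind unfolding proteins without using ATP and hold them until Hsp70 refolds them or passes them on for degradation. Most BAG proteins have a domain that binds the ATPase part of Hsp70 and promotes exchange of its nucleotide, which releases the client protein. Bag3 joins the 2 groups, because it binds Hsp70 and also small heat shock proteins, above all Hspb8, and directs clients to selective autophagy. Several of these genes are known targets of Hsf1, the main transcription factor of the heat shock response, which binds inverted repeats of a short unit. In a mouse embryo, small heat shock proteins are best known from heart, skeletal muscle and smooth muscle, and Hspb1 is also known from endothelium.

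Bag3 and Hspb1 were the members that differed most between the groups. Bag3 was 3.995-fold higher with tamoxifen (95% interval 2.79 to 5.73) and Hspb1 was 10.02-fold higher (95% interval 3.99 to 25.1), each with 3 libraries per group. Folds are on the scale of log2(value + 1), fitted with limma over the 13480 genes whose mean reached 10 normalised reads, and Cryab was under that mean. Of the 9 members tested, 1, Bag3, passed an adjusted p of 0.05 and was higher, where 0.0445% of all genes tested did so, which is 6 genes. Every tamoxifen library lay above every library without tamoxifen for 2 of the 9, Bag3 and Hspb1, as for 6.24% of all genes. The opposite order held for 0 of the 9 and for 7.62% of all genes. These counts follow from the choice of the members, and nothing is read from them. The median log2 fold change of the 9 was 0.37, beside -0.02 over all genes tested. Of the 9 values, 7 were above 0, as were 6264 of the 13480 over all genes tested. Hspb8, among the 7, reached the mean of 10 only through the tamoxifen libraries (means 7.15 without tamoxifen and 14.97 with it). Reaching it in that way favours a positive value, so nothing is read from the median or this count either.

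**Figure D1:**
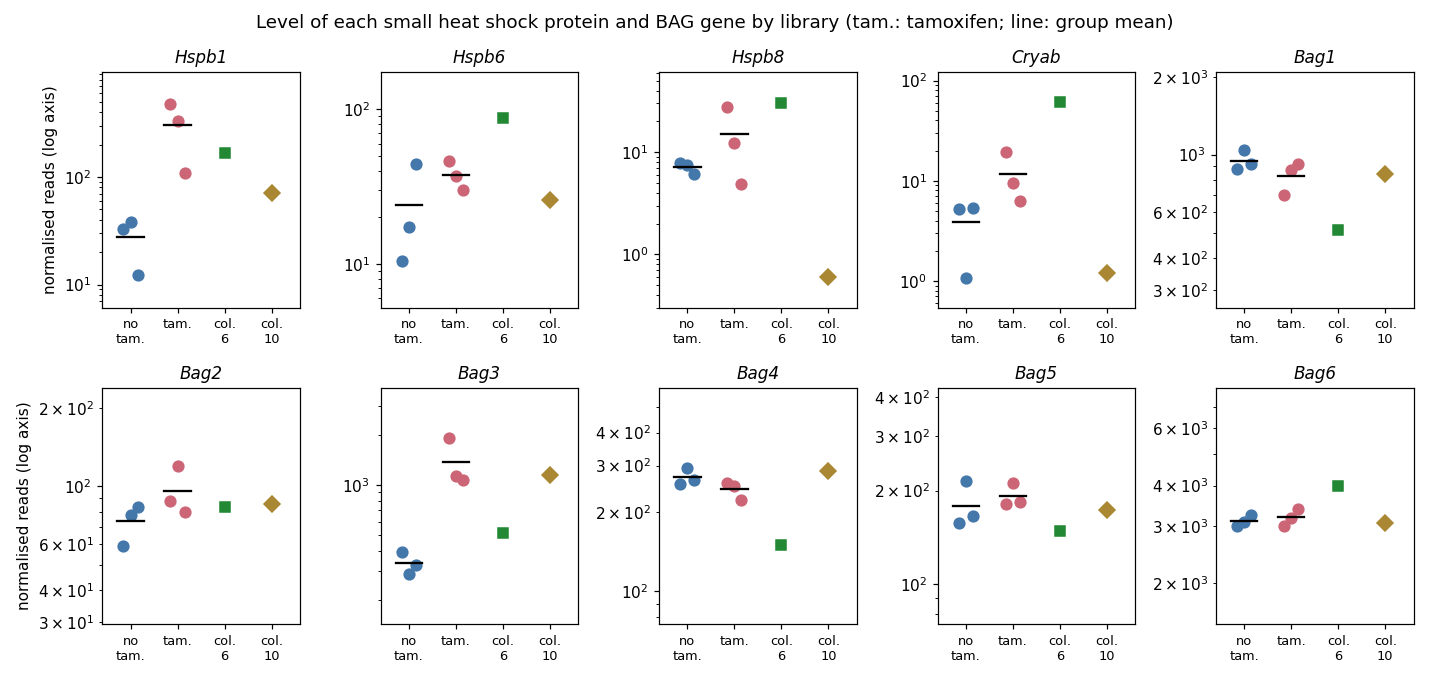
Normalised reads of each member (vertical log axis) in the 3 libraries without tamoxifen, the 3 with tamoxifen, column 6 and column 10; a point is 1 library and a line the mean of 3. The tamoxifen libraries lie above all 3 libraries without tamoxifen for Bag3, Hspb1 and Cryab, while the points of the other BAG genes overlap.

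Bag3 is the stress-inducible BAG protein, known from muscle for the turnover of damaged filamin. It stood at 392, 287 and 325 normalised reads in no_tamoxifen_1 to no_tamoxifen_3 (mean 335 ± 53.1, SD, n = 3). In tamoxifen_1 to tamoxifen_3 it stood at 1927, 1136 and 1074 (1379 ± 476, SD, n = 3). The groups did not overlap, and the lowest tamoxifen library was above the highest of the others. These values rest on 266 to 452 reads without tamoxifen and 1196 to 1881 with it. The log2 fold change was 2.00 (SE 0.23). Column 10 held 1148 normalised reads, inside the tamoxifen range, and column 6 held 513, between the groups. Bag3 lies at chr7:128523616-128546981 on the plus strand (GRCm38). The annotation places the clone gene 2610306O10Rik inside it on the same strand, so the count of reads there is uncertain.

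The 250 bases before the start of Bag3 are shown with those of Hspb1, since these are the members with the largest differences, and with those of the second start of Hspb6 for comparison. Sequences are from RefSeq (GRCm38.p6), which gave windows for 8 of the 10 members (10 windows, since Hspb6 and Bag5 have a second start). Capitals mark an inverted pair of heat shock units, GAANNTTC or TTCNNGAA. Both words read the same on either strand, and overlapping matches were counted.

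Hspb1, chr5:135887669-135887918, plus strand: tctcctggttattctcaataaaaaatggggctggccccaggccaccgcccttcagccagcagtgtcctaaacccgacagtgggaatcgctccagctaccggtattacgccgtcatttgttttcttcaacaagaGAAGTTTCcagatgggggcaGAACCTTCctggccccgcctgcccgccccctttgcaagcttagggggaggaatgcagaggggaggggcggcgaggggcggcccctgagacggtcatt
Bag3, chr7:128523333-128523582, plus strand: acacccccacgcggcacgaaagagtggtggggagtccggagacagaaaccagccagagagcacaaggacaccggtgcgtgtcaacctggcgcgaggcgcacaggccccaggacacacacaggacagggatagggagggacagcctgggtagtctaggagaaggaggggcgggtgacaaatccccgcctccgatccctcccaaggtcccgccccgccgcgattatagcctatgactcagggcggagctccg
Hspb6, second start, chr7:30553051-30553300, plus strand: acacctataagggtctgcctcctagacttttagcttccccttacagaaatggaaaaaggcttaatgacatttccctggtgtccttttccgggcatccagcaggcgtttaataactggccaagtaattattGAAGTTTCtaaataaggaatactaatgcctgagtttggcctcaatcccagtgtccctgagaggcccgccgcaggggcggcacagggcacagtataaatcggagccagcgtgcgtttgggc

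Hspb1 held 2 pairs, at positions -117 to -110 and -97 to -90 from the start. The second start of Hspb6 held 1, at -120 to -113, while the window of its first start, not printed here, held none. Bag3 held none in these 250 bases. In the 50 bases after the start that complete each window, Bag3 held 1 pair at positions 43 to 50 and Hspb8 held 1 at positions 3 to 10. Both are printed here with their nearest bases, in transcript order.

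Bag3, chr7:128523615-128523632, plus strand: gatgggaccaGAAGTTTC
Hspb8, chr5:116422845-116422872, minus strand: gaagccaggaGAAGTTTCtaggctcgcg

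So 4 member genes held a pair within the 300-base window, in 4 of the 10 member windows, and Bag1, Bag2, Bag5 and Bag6 held none. Either pair occurs in 15.1% of all 32817 windows of this length, and 1.95% hold at least 2, as that of Hspb1 does. The word GAAGTTTC came up in 4 of the 5 pairs, and it or its reverse complement stands in 1.21% of all windows; it was picked out after the matches were seen. A run of 3 units was in none of the members' windows and in 0.603% of all. A match describes the letters only, and no binding of Hsf1 was measured.

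Hspb1, also called Hsp25 in the mouse, binds unfolding proteins and caps actin filaments. Its normalised reads were 33.0, 37.8 and 12.2 in no_tamoxifen_1 to no_tamoxifen_3 (27.7 ± 13.6, SD, n = 3). They were 475, 329 and 110 in tamoxifen_1 to tamoxifen_3 (305 ± 184, SD, n = 3). The lowest tamoxifen library was above the highest library without tamoxifen, and the tamoxifen libraries differed among themselves more than those of Bag3 did. The log2 fold change was 3.32 (SE 0.58), on 16 to 38 reads per library without tamoxifen and 157 to 464 with it. It was 3.94 without tamoxifen_3 and 1.75 with the mean level of mesenchymal markers as a covariate. Column 10 held 71.4 and column 6 held 169, both above all 3 libraries without tamoxifen. The gene lies at chr5:135887919-135889563 on the plus strand and overlaps no other annotated gene.

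Hspb8, the partner that Bag3 binds through its paired IPV motifs, was close to the depth limit. It stood at 7.81, 7.56 and 6.09 normalised reads without tamoxifen (9, 7 and 8 reads). With tamoxifen it stood at 27.7, 12.4 and 4.91 (27, 13 and 7 reads). The groups overlapped, with tamoxifen_3 below every library without tamoxifen and the other tamoxifen libraries above them. The log2 fold change was 0.69 (SE 0.65, 95% interval -0.80 to 2.19). Hspb8 reached the minimum mean only through the tamoxifen libraries, which favours a positive value. Column 10 held 0.600, which is 1 read, and column 6 held 30.5.

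Cryab encodes alpha-B crystallin, a lens and muscle chaperone. It was read 6, 1 and 7 times without tamoxifen and 19, 10 and 9 times with it. As normalised reads these are 5.21, 1.08 and 5.33 against 19.5, 9.50 and 6.31 (3.87 ± 2.42 against 11.8 ± 6.86, SD, n = 3 each). The groups did not overlap, but tamoxifen_3 was above the highest library without tamoxifen by less than the SD of either group. The mean was under the minimum, so no fold change was fitted. Column 10 held 1.20 and column 6 held 61.0. Cryab (chr9:50751325-50756636, plus strand) overlaps Hspb2 on the other strand, and reads of the 2 cannot be told apart where counting ignores strand; the sources used here do not give that setting.

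Hspb6, known as Hsp20 in smooth and cardiac muscle, showed no clear difference. It stood at 10.4, 17.3 and 44.1 normalised reads without tamoxifen (23.9 ± 17.8, SD, n = 3) and 46.1, 37.1 and 30.2 with it (37.8 ± 7.997, SD, n = 3). The groups overlapped, since no_tamoxifen_3 was as high as the tamoxifen libraries. The log2 fold change was 0.86 (SE 0.51, 95% interval -0.31 to 2.02). Column 6 held 87.5 and column 10 held 25.8. Hspb6 (chr7:30552178-30555443, plus strand) overlaps Proser3 and Lin37 on the other strand, so its count is uncertain where counting ignores strand.

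Of the small heat shock proteins that are not members, Hspb9, a testis protein, reached the minimum. It did so only through the tamoxifen libraries, with means of 6.98 without tamoxifen and 13.4 with it. It stood at 6.07, 6.48 and 8.37 normalised reads without tamoxifen and 17.4, 9.50 and 13.3 with it. The groups did not overlap, but the log2 fold change of 0.83 (SE 0.50) did not pass the test (limma, adjusted p = 0.632). Reaching the minimum in that way favours such an order, so nothing is read from it. The muscle genes Hspb2 and Hspb7 and the lens gene Cryaa had at most 3 reads in any of the 6 libraries. Hspb3, another muscle gene, and Odf1, a sperm tail gene, had 0 reads in all 8 columns. A count of 0 allows up to 3 reads per library, or 2.10 to 3.24 normalised reads in the 6.

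Mesenchymal markers moved with part of these differences. The summed level of the 11 mesenchymal and fibroblast genes, such as Col1a1 and Pdgfra, was 5085, 3353 and 2394 normalised reads without tamoxifen. With tamoxifen it was 58827, 90796 and 4926 in tamoxifen_1 to tamoxifen_3, so 2 tamoxifen libraries were far above the rest and the other was inside the range without tamoxifen. All 11 genes had a positive log2 fold change (median 3.08), and 4 of the 11 did not overlap between groups. Twist1, which is among the 4, reached the minimum only through the tamoxifen libraries (means 7.05 without tamoxifen and 61.3 with it). In limma 0 passed, with 10 at an unadjusted p under 0.05, and 0 were called by edgeR and 7 by DESeq2. Over all 13480 genes tested, 6.24% were higher without overlap, 6 passed in limma and 1215 had an unadjusted p under 0.05. Of all genes, edgeR called 5 and DESeq2 275. None of the 11 was at 0 in any library, and Col1a1 ranged from 896 to 42746 and Pdgfra from 6.09 to 441 over the 6. Cartilage markers summed to 662 to 981 without tamoxifen and to 16448, 14237 and 830 with it. Mural and smooth muscle markers summed to 603 to 853 against 1968, 2136 and 729. Over the 6 libraries, cardiac muscle markers stayed at or under 47.5 in sum over 8 genes, and skeletal muscle markers at or under 59.4 over 9 genes. In column 6, where Hspb6, Hspb8 and Cryab were highest, these sums were 541 and 529. In bulk samples, fewer cells of a type and less RNA per cell cannot be told apart.

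Bag3 was above every library without tamoxifen in each tamoxifen library, and of these only tamoxifen_3 had a low level of mesenchymal markers. In tamoxifen_3 the mean log2(value + 1) of the 11 mesenchymal genes was 6.91, within the 5.80 to 6.996 without tamoxifen, and in column 10 it was 6.54. Bag3 was 1074 and 1148 normalised reads there, and Hspb1 was 110 and 71.4, all above every library without tamoxifen. Hspb8 was below every library without tamoxifen there, at 4.91 and 0.600. Cryab was 6.31 in tamoxifen_3, above the 5.33 of the highest library without tamoxifen, and 1.20 in column 10, inside their range. Both were highest in column 6 and then tamoxifen_1, whose mesenchymal means were 12.96 and 10.3. Both were lower in tamoxifen_2 than in tamoxifen_1, although its mesenchymal mean was 10.7. With the mesenchymal mean as a covariate, the log2 fold change was 1.66 for Bag3, 1.75 for Hspb1 and -0.57 for Hspb8. This fit rests on the 6 libraries, and its errors are not given. Other markers differed in tamoxifen_3 and column 10 as well. Endothelial markers summed to 8070 in tamoxifen_3 and 5364 in column 10, below the 12057 to 19925 without tamoxifen. Macrophage markers summed to 44702 and 37039 there, against 37608 to 42813 without tamoxifen. The part of other cell types in the levels of Bag3, Hspb1, Hspb8 and Cryab was not tested.

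**Figure D2:**
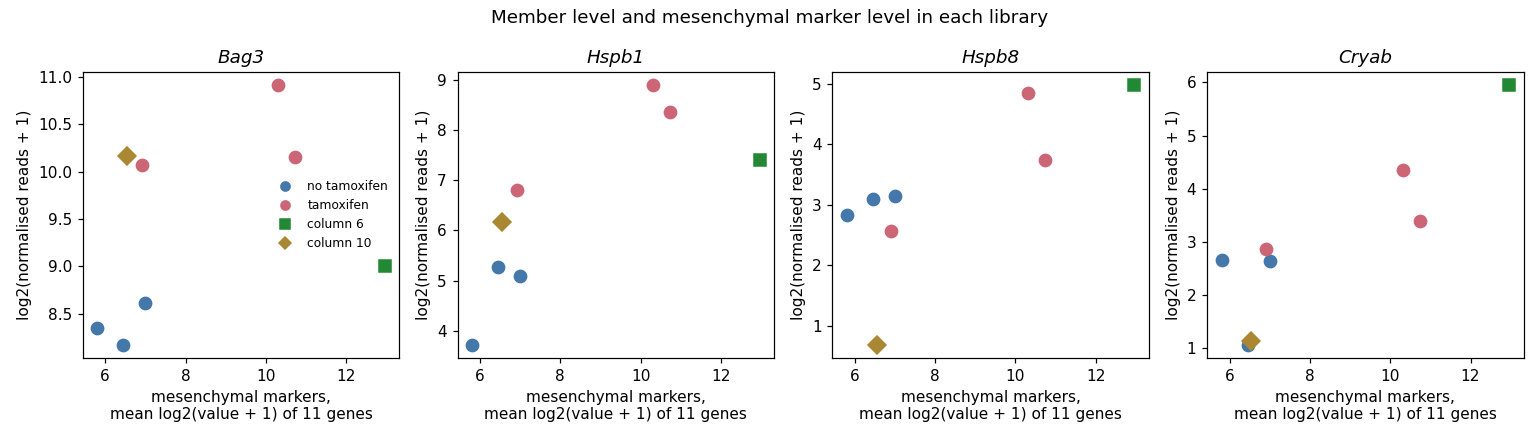
log2(normalised reads + 1) of Bag3, Hspb1, Hspb8 and Cryab (vertical) against the mean log2(value + 1) of 11 mesenchymal marker genes (horizontal), 1 point per library. At a marker level near 7, tamoxifen_3 and column 10 lie above the libraries without tamoxifen for Bag3 and Hspb1, and not for Hspb8; column 6 is at the right edge.

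The BAG genes other than Bag3 showed differences within the spread between libraries. Bag1, which binds Hsp70, the proteasome and Bcl2, stood at 881, 1044 and 921 normalised reads without tamoxifen and at 699, 874 and 916 with it. Its log2 fold change was -0.20 (SE 0.13, 95% interval -0.51 to 0.11). The groups overlapped, as they did for each of the other 4. Bag2, an inhibitor of the ubiquitin ligase Chip (gene Stub1), stood at 59.0, 77.8 and 83.7 against 88.1, 120 and 80.0. Its log2 fold change of 0.37 (SE 0.24, 95% interval -0.18 to 0.92) was the highest of these 5.

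Bag4, which silences death receptor signalling, stood at 256, 295 and 265 without tamoxifen and at 258, 252 and 223 with it. Bag5, with several BAG domains in 1 protein, stood at 157, 214 and 166 against 181, 211 and 183. The ranges of Bag5 overlapped widely and those of Bag4 narrowly, with log2 fold changes of -0.15 (SE 0.14) for Bag4 and 0.11 (SE 0.17) for Bag5. Bag6, which holds tail-anchored membrane proteins and misfolded proteins in the cytosol, was the most even member. It stood at 3001, 3085 and 3247 against 2999.9, 3187 and 3385, with a log2 fold change of 0.04 (SE 0.10, 95% interval -0.18 to 0.26). As folds, the interval of Bag6 ran from 0.880 to 1.19.

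Per kilobase of merged exons, the order of the BAG genes without tamoxifen was Bag1, Bag6, Bag3, Bag5, Bag4 and Bag2. Bag1 stood at 703 ± 62.9 and Bag6 at 501 ± 20.1 normalised reads per kilobase, and Bag3 at 131 ± 20.7 (SD, n = 3 each). Their ranges did not overlap. Bag5, Bag4 and Bag2 followed at 71.3 ± 12.2, 38.7 ± 2.90 and 24.0 ± 4.22, also without overlap. With tamoxifen, Bag3 stood at 538 ± 186 and its range overlapped those of Bag1 (615 ± 85.4) and Bag6 (513 ± 31.0), so the order of these 3 is not resolved. Bag3 made up 8.95 ± 1.80% of the summed level of the 6 genes without tamoxifen and 29.5 ± 8.92% with it (SD, n = 3 each). Its share was 26.3% in column 10 and 15.05% in column 6. All 6 genes together came to 1407 to 1535 normalised reads per kilobase without tamoxifen, below the 1763 to 1891 with it.

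**Figure D3:**
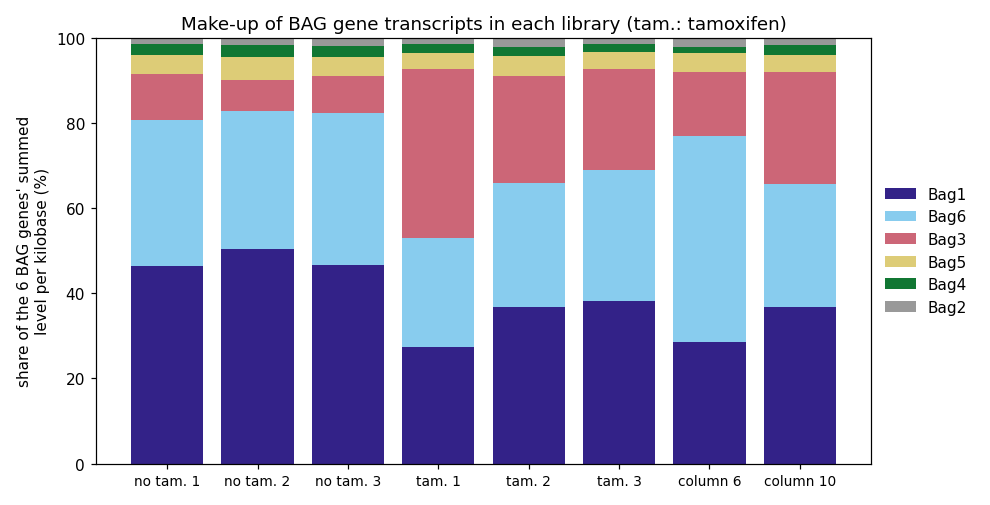
Share of each BAG gene in the summed level per kilobase of the 6 genes (vertical, %), stacked to 100% for each library. The Bag3 segment covers 7.31% to 10.9% in the libraries without tamoxifen and 23.6% to 39.8% in those with it.

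Among the small heat shock proteins, Hspb1 had the highest mean level per kilobase in both groups. It stood at 26.8 ± 13.2 normalised reads per kilobase without tamoxifen, and its range overlapped that of Hspb6 (10.4 ± 7.75). Hspb9 (9.61 ± 1.69), Hspb8 (3.67 ± 0.477) and Cryab (2.62 ± 1.63) followed, and Hspb6 overlapped with Hspb9, as Hspb8 did with Cryab. With tamoxifen Hspb1 stood at 296 ± 178, above all the others in each library, and it made up 82.2 ± 8.46% of the summed level of the 10 genes of the family. Without tamoxifen this share was 47.7 ± 21.6%, with no_tamoxifen_3 lowest at 22.8%. The summed level of the small heat shock proteins lay between 51.8 and 59.4 without tamoxifen and between 147.3 and 537 with it, under that of the BAG genes in every library.

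The other genes of these pathways were grouped in 7 lists, which were written with earlier results of these data known. Together with Hspb9 they held 65 different genes that were tested, of which 4 passed the test, all higher with tamoxifen. Over all genes tested, 0.0445% passed, which is 6 genes. Partners of Bag3 and Hspb8 in chaperone-assisted selective autophagy gave 11 tested genes, and 0 of them passed in limma, with 1 (Hspa8) at an unadjusted p under 0.05, 0 called by edgeR and 1 (Hspa8) by DESeq2. Their median log2 fold change was 0.01. The lowest p-values of this list belonged to Hspa8, the constitutive Hsp70 (log2 fold change 0.44, SE 0.15, limma adjusted p = 0.475), Flnc and Synpo. Flnc, a muscle filamin that Bag3 helps to clear, stood at 242, 160 and 103 normalised reads against 686, 907 and 130 (limma adjusted p = 0.564). Synpo, an actin-bundling protein, stood at 102, 78.9 and 61.6 against 256, 344 and 60.3 (limma adjusted p = 0.587). Both were high in the 2 tamoxifen libraries with high mesenchymal markers and in column 6, at 5104 and 1048, and not in tamoxifen_3.

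Hsp70 proteins and exchange factors, the group on which BAG domains act, had 3 of 13 tested genes pass, where 0.0445% of all genes tested did so. The list median was -0.03. Hspa1a and Hspa1b, the inducible Hsp70 genes, stood at 975 to 1226 and 1091 to 1618 normalised reads without tamoxifen. They rose to 24607 to 45753 and 44218 to 78419 with it, log2 fold changes of 4.79 (SE 0.22) and 5.32 (SE 0.23), each with a limma adjusted p of 8.83e-05. The 2 genes are near-identical copies, so the split of reads between them is uncertain. Hsph1, an exchange factor and holdase of the Hsp110 class, rose from 958 ± 181 to 8707 ± 3897 (log2 fold change 3.11, SE 0.28, limma adjusted p = 0.00808). Hspa4l, a related exchange factor, was next by p-value and did not pass (log2 fold change 0.43, SE 0.14, limma adjusted p = 0.462).

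The remaining 4 lists of partners and regulators gave 0 genes past the test by limma and 1 (Bcl2) at an unadjusted p under 0.05, with 0 called by edgeR and 0 by DESeq2. For Bag6 these are the factors that pass tail-anchored proteins to the endoplasmic reticulum, with 6 tested genes and a median log2 fold change of -0.05. Their lowest adjusted p was that of Ubqln1 (0.19, limma adjusted p = 0.624), followed by Asna1 (-0.17), Get4 (-0.14) and Rnf126 (0.18). For Bag1, Bag4 and Bag5 they are apoptosis and kinase partners, with 8 tested genes and a median of 0.06. Bcl2, the survival protein bound by Bag1, led them (log2 fold change 0.52, limma adjusted p = 0.543), before Park7 (-0.26), Tnfrsf10b (0.42) and Siah1a (-0.36). The 8 kinases that phosphorylate small heat shock proteins had a median of -0.04, with Mapkapk5 first (0.12, limma adjusted p = 0.787), then Akt1 (-0.07), Mapkapk3 (-0.11) and Mapk11 (0.21). Of the heat shock factors, Hsf1 had a log2 fold change of 0.17 (limma adjusted p = 0.706), Hsf2 of 0.14 and their inhibitor Hsbp1 of -0.09. Over the 65 tested genes of all lists, 16 had an unadjusted p under 0.05, as did 1215 of all 13480 genes tested. Of the 16, 15 belong to the list of Hsf1 target genes given next, and the other is Bcl2.

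Known target genes of Hsf1 had 4 of 21 pass the test, where 0.0445% of all genes tested did so. This list too was written with earlier results of these data known. Its counts are therefore a description, and nothing about Hsf1 is read from them. All 4 genes were higher with tamoxifen: Hspa1a, Hspa1b, Hsph1 and Dnajb1. Dnajb1, an Hsp40 cochaperone of Hsp70, rose from 715 ± 46.1 to 6320 ± 2300 normalised reads (log2 fold change 3.08, SE 0.23, limma adjusted p = 0.00270). The log2 fold change was above 0 for 20 of the 21 genes, with a median of 0.55, beside -0.02 over all genes tested. Every tamoxifen library was above every other library for 15 of the 21, where 6.24% of all genes tested had that order. Among those that did not pass were Dnaja1 (log2 fold change 1.06, limma adjusted p = 0.0990) and Hsp90aa1, the inducible Hsp90 (1.02, limma adjusted p = 0.267). Bag3, with 2.00, and Hspb1, with 3.32, had differences between those of Dnaja1 and Hspa1a.

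**Figure D4:**
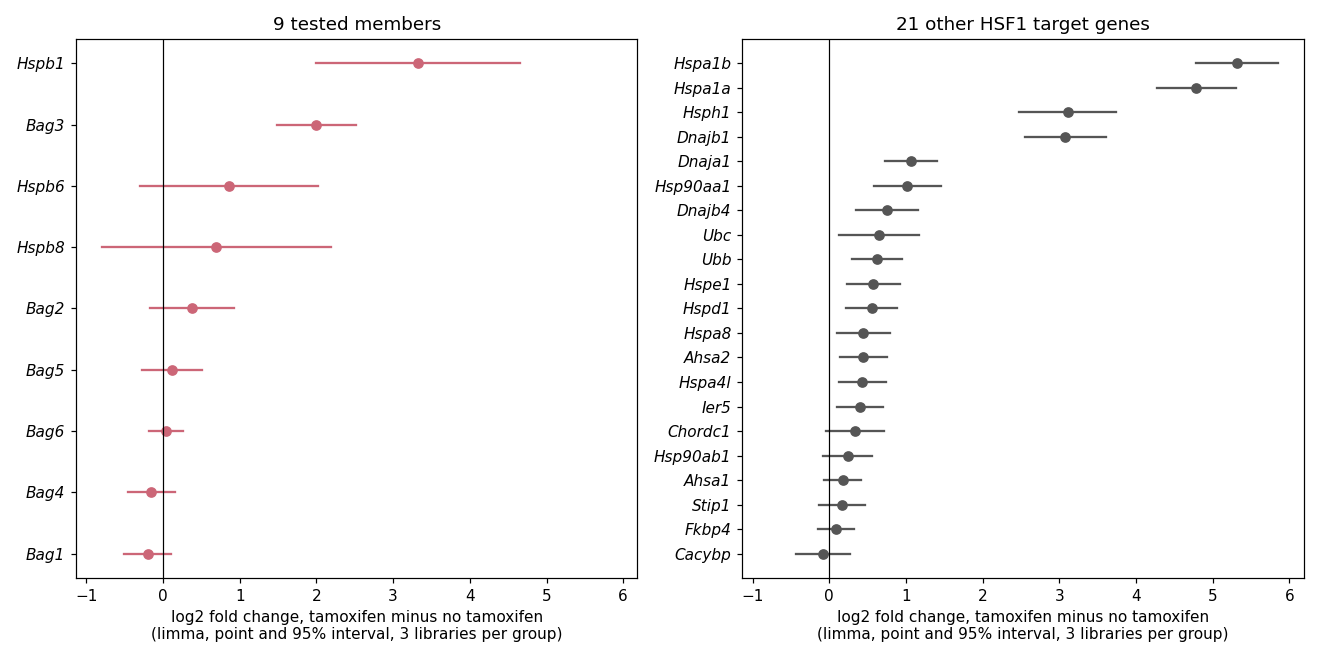
log2 fold change of tamoxifen minus no tamoxifen (horizontal; point, with its 95% interval as a line) for the 9 members that were tested and for 21 other Hsf1 target genes. Intervals of Bag3 and Hspb1 lie above 0, and those of the other 7 members cross it.

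The calls depended on single libraries and on the placement of the header. Without tamoxifen_3 the test called 1459 genes (989 higher and 470 lower), among them Bag3, Hspb1 and 13 of the listed partners. Without no_tamoxifen_1, no_tamoxifen_2 or no_tamoxifen_3 it called 3, 2 and 2 genes, and without tamoxifen_2 it called 4. Bag3 was in none of those 4 sets, and the log2 fold change of Bag3 was 1.73 to 2.15 over all 6 omissions. Dnajb1 was lost without no_tamoxifen_2 or no_tamoxifen_3, and Hsph1 also without no_tamoxifen_1, while Hspa1a and Hspa1b passed in all 6. With all 8 columns and the names over the last 8, limma called 4 genes, without Bag3. With the names over the first 8 it called 0 (584 at an unadjusted p under 0.05). That fit lacked the unused value column, which this placement names as a library without tamoxifen, so the placement was not tested in full. edgeR called 5 genes, also without Bag3, as did limma on values scaled to depth without Rn45s, a ribosomal RNA precursor. Rn45s took 35.1% to 38.7% of reads without tamoxifen and 29.4% to 33.7% with it, with no overlap. DESeq2 called 275, with Bag3 and Hspb1.

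Likeness to each varying member was measured as the root mean square difference between mean-centred log2(value + 1) profiles over the 8 columns, for genes with a mean of at least 50. The 8 columns share the tamoxifen difference and the stand-apart column 6, and these distances are a description with no test. The genes nearest to Bag3 were Phlda1 (0.29), Hspa1l (0.34), Nr4a1 (0.45), Nr4a3 (0.49) and Dnaja1 (0.51). Hspa1l is an Hsp70 gene next to Hspa1a, Dnaja1 is an Hsp40 gene, and Nr4a1 and Nr4a3 are immediate early nuclear receptors. Those nearest to Hspb1 were farther off, Col5a3 (0.72), Gja5 (0.88), Fbln5 (0.89), Eln (0.92) and Gfra1 (0.94). Eln encodes elastin, Fbln5 an elastic fibre protein and Gja5 an arterial connexin.

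Hspb8 was most like Syde1 (0.39), Parva (0.40), Tgfb1i1 (0.42), Zfp532 (0.43) and Adam12 (0.43). Parva and Tgfb1i1 encode focal adhesion proteins. Cryab was most like Wdr35 (0.41), Mt2 (0.51), Uchl1 (0.55), Mapk8ip1 (0.55) and Cyr61 (0.57), of which Mt2 is a metallothionein. Hspb6 was most like Ggn (0.38), Mamdc4 (0.43), Ptpru (0.44), Dedd2 (0.44) and Rps6kl1 (0.44). The profiles of Hspb8 and Cryab rest on at most 30 reads per column, so their nearest genes are the least certain. The 5 BAG genes other than Bag3 varied too little for such a comparison, with an SD under 0.5 on the log2 scale over the 6 libraries.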

How the data were processed

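The authors deposited 1 table of normalised read counts per gene symbol (a signal unit, not raw counts). Per the submitters' processing notes, STAR, HTSeq 0.11.2 and DESeq2 were used, and the builds hg38 and mm10 are listed with no role. The sources used here do not give the strand setting. All values were whole multiples of 1 step within 0.001 reads (100% of values in each library), so reads were recovered for depths and for alternative count tests, which called 5 genes with edgeR and 275 with DESeq2. The Poisson intervals of reads and the floor of 3 reads for a count of 0 cover counting error only. Intervals of folds and log2 fold changes come from limma and reflect the spread among libraries.

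Values were tested on log2(value + 1) for genes with a mean of at least 10 by limma 3.58.1 with a mean-variance trend in R 4.3.3, two-sided, with Benjamini-Hochberg adjustment over the 13480 genes at 0.05. edgeR 4.0.16 and DESeq2 1.42.0 served as alternatives. The script was tested on simulated data. The libraries used follow the header, which is 1 name short, and 1 value column was not used. Replicates of a group differed by more than sampling noise (chi-square per degree of freedom 7.42 to 50.4). Exon lengths and positions are from GENCODE M21 (GRCm38). The members and lists were chosen with earlier results of these data known, also the lists that carry adjusted p-values. Named genes are the members, the other family genes, the called genes and the 4 lowest p-values of each list, and the 5 genes most like each member with an SD of at least 0.5. Of the genes in the lists, 72 were in the table and 65 were tested. A result that the rule for named genes would give is not reported here.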

Additional observations from a re-analysis of the deposited data

Results flagged for a closer look

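Column 6, whose group depends on how the header is placed, held several members above the highest library without tamoxifen, beyond the 95% Poisson interval of its own reads. Hspb1 was 169 normalised reads there against at most 37.8, Hspb6 was 87.5 against 44.1, and Hspb8 was 30.5 against 7.81. Cryab was 61.0 against 5.33, Bag3 was 513 against 392, and Bag6 was 3987 against 3247. In the same column the summed levels of mesenchymal (458818), cartilage (131107), mural (11455), cardiac muscle (541), skeletal muscle (529), erythroid (89685), epithelial (2105) and neural (698) markers were above those of all 6 libraries. Those of macrophage and endothelial markers were below them, and the part of these cells in the values was not tested.

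Column 10, which has a tamoxifen name in one placement and none in the other, held Hspb1 at 71.4 against at most 37.8 and Bag3 at 1148 against at most 392. Its mesenchymal marker level was inside the range without tamoxifen.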

How the results depend on the processing

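Against 6 genes called in all and 4 of the listed partners, DESeq2 called 275 (247 higher, 28 lower) and 11. Leaving out 1 library at a time gave 2 to 1459 and 2 to 13. With the header names over the first 8 columns, column 6 falls with tamoxifen. There limma called 0 and 0 (584 and 7 at an unadjusted p under 0.05), with column 10 and the unused value column left out. Over the last 8 columns limma called 4 and 4. The counts stayed within 1.5 times under other pseudocounts, filters, TMM scaling, depth scaling without Rn45s, edgeR and added column 10, although Bag3 was not called without Rn45s or by edgeR; the partners were put through every alternative after the data were seen. A replicate block called 21 genes (20 higher, 1 lower), with Bag3 and Hspb1, and 5 partners. Deviations of same-numbered libraries correlated at 0.20, 0.04 and 0.34. With 3 libraries per group these values cannot exclude pairing or a shared batch. The main fit took no account of position.

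Over 19 alternatives the log2 fold change was 1.66 to 2.15 for Bag3, called in 11, and 1.75 to 3.94 for Hspb1, called in 4. The lower end for Hspb1 was with mesenchymal markers as a covariate. A sign opposite to the main value came up for Hspb8, Bag1, Bag4 and Bag6. The cause was not tested. Hspb8, Cryab and Hspb6 are limited by depth, at 1 to 58 reads per library in the 6.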
